A study of Homo sapiens with 4 samples.

Results

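H3K9me3 was set against H3K9me2 in HCT116 cells treated with 5-aza-CdR, over the 373 subfamilies of long terminal repeats (LTRs) that the deposited table lists. The comparison rests on 2 of the 4 libraries of the series, and every listed subfamily was kept. HCT116 is an established human colorectal carcinoma line. The groups were H3K9me3 after 5-aza-CdR, H3K9me2 after 5-aza-CdR, H3K9me3 after PBS and H3K9me2 after PBS, with 1 library each. Per the labels' protocols, 5-aza-CdR (5-aza-2'-deoxycytidine, a cytosine analogue that traps DNA methyltransferases) was given at 300 nM for 24 h, PBS was the vehicle, and cells were harvested at 5 days. Both marks came from native ChIP-seq, which pulls down single nucleosomes without cross-linking. With 1 library per mark and treatment no p-value could be computed, and no difference below has a replicate check.

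Lysine 9 of histone H3 can carry methyl groups, and both H3K9me3 and H3K9me2, which differ in their number, mark silent chromatin. H3K9me2 is laid down mainly by the G9a and GLP methyltransferases over broad regions. H3K9me3 at retroviral repeats is laid down mainly by SETDB1, which KRAB zinc finger proteins recruit through TRIM28, and it is bound by HP1 proteins. LTRs flank endogenous retroviruses and carry their promoters and enhancers, so silencing of an LTR also restrains genes nearby. As a population of cells was profiled, a mark present in fewer cells and a mark at a lower level in each cell cannot be told apart.

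Values are the authors' z-scores, a standardised score whose centre and scale the labels and headers do not state, and the read depth behind them is unknown. A subfamily's lean is its H3K9me3 value minus its H3K9me2 value. The lean was taken on the deposited z-scores and on percentile ranks, which order the 373 values of a library from 0 to 100. A lean was called when its distance from the median lean of the whole table exceeded 2 robust SDs, the robust SD being the median absolute deviation scaled to match an SD. A subfamily was said to lean to a mark only where both scales called it on the same side. Neither library holds a listed control locus, so the antibodies' labels could not be checked against a known target.

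After 5-aza-CdR the marks ordered LTRs alike, and a small set stood off the shared trend, mostly toward H3K9me3. Of 373 subfamilies, 21 leaned to H3K9me3 on both scales (5.63%) and 2 leaned to H3K9me2 (0.536%). The size of this imbalance depended on the scale. On percentile ranks 38 lay beyond the limit toward H3K9me3 and 15 toward H3K9me2. With each library set to mean 0 and SD 1, the counts on both scales were 32 and 7. LTR10, a group of LTRs known as enhancers in colorectal cancer cells, held 5 of the 21. The rest were spread over MER-named LTRs (7), LTR12 (2), HERV-Fc1 (2), LTR14A, LTR2C, LTR26, LTR61 and LTR77. LTR5 and LTR86A2 were the pair on the H3K9me2 side.

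The H3K9me3 z-score averaged 0.449 over the subfamilies (SD 0.206, range -0.311 to 2), against 0.270 for H3K9me2 (SD 0.290, range -0.835 to 1.71). H3K9me3 was above 0 at 366 subfamilies and H3K9me2 at 301. The z-score was higher for H3K9me3 at 353 subfamilies and for H3K9me2 at 20. Because the libraries differ in mean and spread, the sign of a raw difference carries little, and leans are read from the median, which was 0.144 z-score units. On ranks the median lean was -1.88 percentile points, and 154 subfamilies ranked higher for H3K9me3, 213 for H3K9me2 and 6 equally. The Spearman correlation between the marks across the 373 subfamilies was 0.85 and the Pearson r was 0.85. The partial Spearman value, given CpG density, was 0.70. These subfamilies are related by descent and share the same libraries, so the correlations are descriptions.

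**Figure D1:**
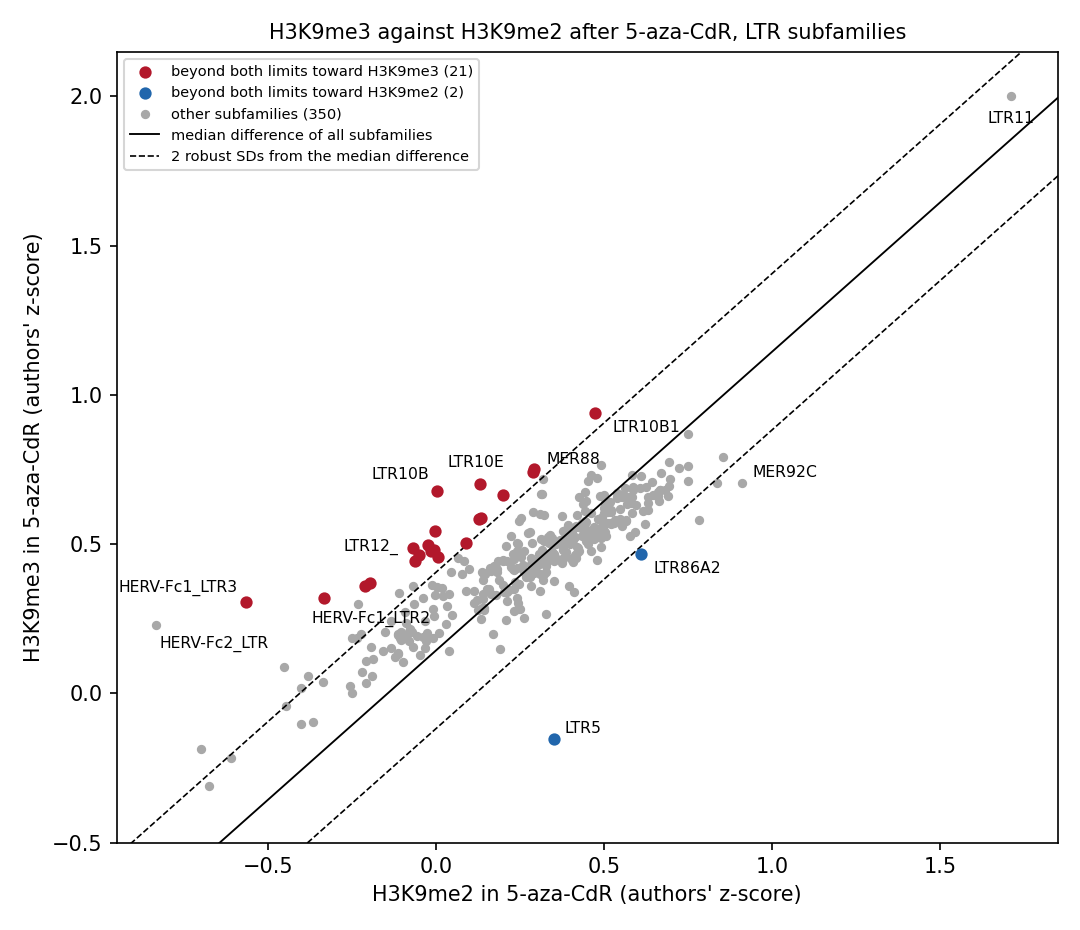
Authors' z-scores in the 5-aza-CdR libraries, H3K9me3 on the vertical and H3K9me2 on the horizontal axis, 1 point per LTR subfamily. The solid line is the median difference of 0.144 and the dashed lines lie 2 robust SDs from it; red points leaned to H3K9me3 on both scales (21), blue points to H3K9me2 (2), and LTR5 lies farthest below the trend.

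The scales did not call the same subfamilies. On deposited z-scores 32 subfamilies lay above the limit (8.58%) and 5 below it (1.34%), the limits being 0.406 and -0.118. On percentile ranks 38 lay above (10.2%) and 15 below (4.02%), with limits of 18.8 and -22.5 points. Of those above, 11 were called on z-scores alone and 17 on ranks alone. Of those below, 3 were called on z-scores alone and 13 on ranks alone, and 0 were on opposite sides. H3K9me2 had the wider spread, and the z-score lean followed it: the Spearman correlation of the lean was -0.78 with the H3K9me2 value and -0.38 with the H3K9me3 value. On ranks these correlations were -0.29 and 0.20. Ranks have the opposite limit, since a subfamily near either end of the order has little room to differ. The counts on both scales were 32 toward H3K9me3 and 7 toward H3K9me2 when each library was set to mean 0 and SD 1, and 4 and 1 with a limit of 3 robust SDs.

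The 21 subfamilies leaning to H3K9me3 were chosen on the difference of these values, so their levels are a description. Their H3K9me2 percentile rank was under 50 at 20 of the 21, LTR10B1 being the exception at 77.3. Their H3K9me3 rank ran from 20.8 to 99.6 and was over 50 at 14. The low end was HERV-Fc1_LTR3 and the high end LTR10B1. With the table cut into 3 equal classes of CpG density, 13 were in the CpG-rich class, 8 in the middle class and 0 in the CpG-poor class. In the same order, all subfamilies above the z-score limit numbered 23, 9 and 0. All those above the rank limit numbered 17, 18 and 3, so on ranks the CpG-rich class did not hold more than the middle class.

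LTR10 repeats belong to the HERV-I group of gammaretrovirus-like elements, and several of them are known to bind p53. Among the 20 families compared, they had the highest median on both scales, 0.506 z-score units and 31.6 percentile points over 8 subfamilies. The medians over all subfamilies were 0.144 and -1.88. Of the 8, 5 leaned to H3K9me3 on both scales (62.5%, against 5.63% of the whole table). LTR10B had the largest rank lean in the table. Its z-scores after 5-aza-CdR were 0.676 for H3K9me3 and 0.0040 for H3K9me2, which placed it at percentile 91.3 for H3K9me3 and 19.7 for H3K9me2, a lean of 71.6 points. LTR10E came next, at percentiles 94.0 and 25.6, a lean of 68.4 points (z-scores 0.701 for H3K9me3 and 0.130 for H3K9me2). Both were high in the H3K9me3 order and low in the H3K9me2 order.

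LTR10G and LTR10A followed the same pattern at a lower H3K9me3 level. LTR10G had z-scores of 0.542 for H3K9me3 and -0.0046 for H3K9me2, and a lean of 48.8 points. LTR10A had 0.487 and -0.0687 for H3K9me3 and H3K9me2, and a lean of 41.0 points. LTR10B1 was high for both marks, with z-scores of 0.939 for H3K9me3, the next highest in that library after LTR11, and 0.474 for H3K9me2. Its rank lean was 22.3 points. The other members, of which LTR10C and LTR10F are named to complete the family and not by the naming rule, stayed within both limits. LTR10C had a lean of 11.8 points, LTR10F of 1.34 and LTR10D of -2.14, and LTR10F and LTR10D were low for both marks (percentiles 7.91 and 4.96 for H3K9me3, 6.57 and 7.10 for H3K9me2). The LTR10 name thus covers members far from the trend and members on it.

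**Figure D2:**
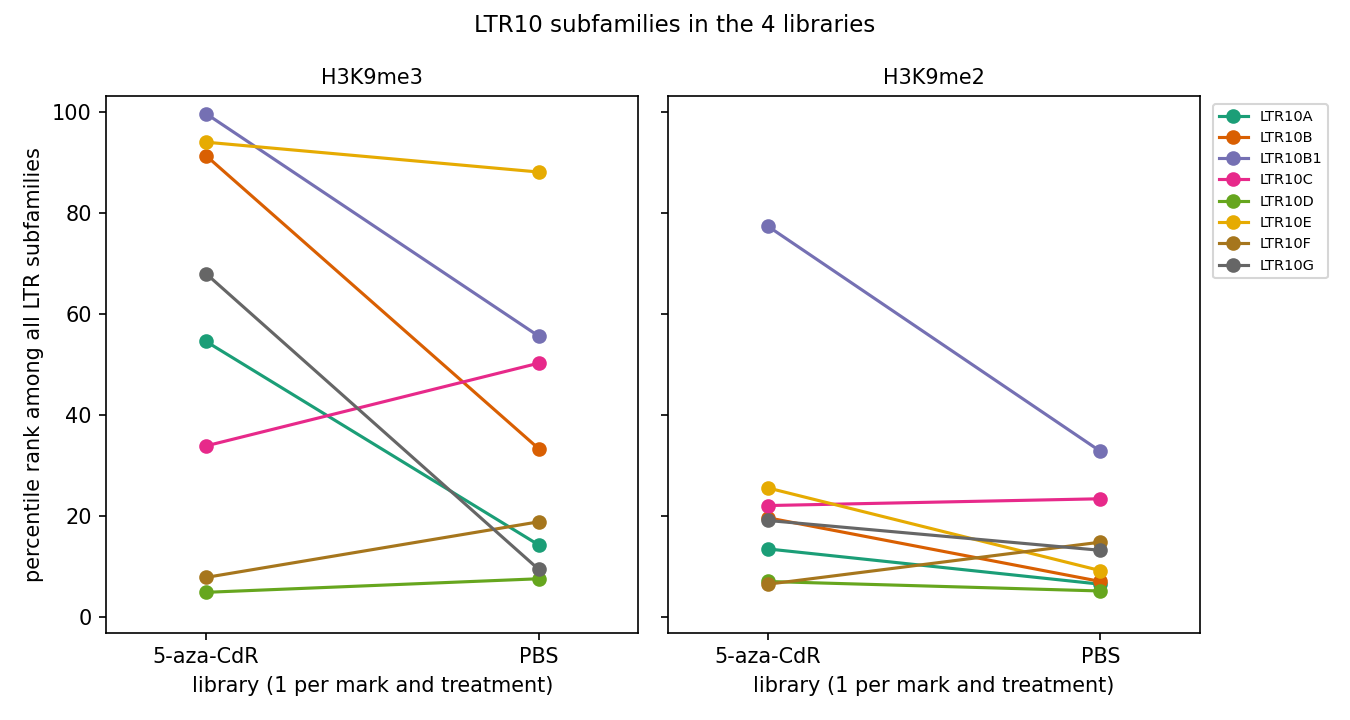
Percentile ranks of the 8 LTR10 subfamilies among all LTR subfamilies, for H3K9me3 (left) and H3K9me2 (right), with the 5-aza-CdR library left of the PBS library and 1 line per subfamily. After 5-aza-CdR, 5 members lie above percentile 50 for H3K9me3 and LTR10B1 alone does for H3K9me2.

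The same measurement in the PBS libraries gives the rank leans of these subfamilies without 5-aza-CdR. In PBS no LTR10 member was called on both scales, and LTR10E alone passed the PBS rank limit of 30.5 points. The family's H3K9me3 z-scores in PBS ran only from -0.552 to -0.476, so large rank differences there rest on small z-score differences. LTR10E had a lean of 68.4 points in 5-aza-CdR and of 78.8 in PBS, where it was at percentiles 88.1 for H3K9me3 and 9.25 for H3K9me2. LTR10B1 had nearly the same lean in 5-aza-CdR and in PBS (22.3 and 22.8 points). LTR10G had a lean of 48.8 points in 5-aza-CdR and -3.75 in PBS. Its H3K9me3 rank was 68.0 in 5-aza-CdR and 9.52 in PBS, and its H3K9me2 rank was 19.2 in 5-aza-CdR and 13.3 in PBS. LTR10B had 71.6 points in 5-aza-CdR and 26.3 in PBS, and LTR10A 41.0 and 7.77. Over the family, 3 leans were larger in 5-aza-CdR and 5 were smaller. The median family lean was 31.6 points in 5-aza-CdR and 15.3 in PBS.

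Endogenous retroviruses of the HERV-Fc and HERV1 names are low-copy gammaretrovirus-like families, and HERV-Fc1_LTR2 and HERV-Fc1_LTR1 had the highest CpG densities of the table. HERV-Fc2_LTR had the largest z-score lean of all, 1.06, with z-scores of 0.230 for H3K9me3 and -0.835 for H3K9me2. Its rank lean was 13.9 points and missed the limit, since it was at percentile 14.1 for H3K9me3 and had the lowest H3K9me2 value. HERV-Fc1_LTR3 leaned to H3K9me3 on both scales, with z-scores of 0.305 for H3K9me3 and -0.566 for H3K9me2 and leans of 0.871 and 19.6 points. HERV-Fc1_LTR2 did too, with 0.321 for H3K9me3, -0.333 for H3K9me2 and leans of 0.654 and 19.0 points. These leans exceeded the rank limit of 18.8 points narrowly. HERV-Fc1_LTR1 had the lowest H3K9me3 z-score of the library, -0.311, and a rank lean of -0.536. In PBS, HERV-Fc1_LTR2 and HERV-Fc1_LTR3 were at the bottom of both libraries, with rank leans of 0. Their z-score leans in PBS were 0.522 and 0.349, above the PBS z-score limit of 0.229, so on that scale they were also called without 5-aza-CdR. The z-score lean in PBS had a Spearman correlation of -0.99 with the H3K9me2 value, so these calls mostly restate low H3K9me2 values. HERV-Fc1_LTR2 had the lowest H3K9me3 z-score of the PBS library, -0.630. Over the 9 subfamilies the median leans were 0.423 z-score units and 5.90 points. On both scales 2 members leaned to H3K9me3 (22.2%, against 5.63% of the whole table).

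For LTR12, the promoter repeat of ERV9 that is active in germ line and cancer cells, 7 of 7 members had leans above the table's median on both scales. On ranks that median was -1.88 points, and a member near the bottom of the H3K9me2 order has little or no room to fall below it. LTR12E, at percentile 1.74 for H3K9me2, could not, so the rank count is partly set by position. The family medians were 0.421 z-score units and 5.09 points. LTR12_ had z-scores of 0.463 for H3K9me3 and -0.0496 for H3K9me2 and a lean of 33.5 points, and LTR12 had 0.370 for H3K9me3, -0.198 for H3K9me2 and a lean of 23.9. These were the members called on both scales (28.6%, against 5.63% of the whole table). The others ranked from percentile 1.74 to 19.7 for H3K9me3 and from 1.74 to 14.1 for H3K9me2. LTR12E, at 1.74 for each mark, had a lean of 0. LTR12D had 5.09 points, the family median.

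THE1 repeats, the youngest of the primate MaLR elements, showed a moderate lean shared by every member. The z-scores ran from 0.466 to 0.526 for H3K9me3 and from 0.222 to 0.242 for H3K9me2 over 4 subfamilies. Their rank leans ran from 12.9 points at THE1A and 13.4 at THE1D to 27.9 at THE1B, with a median of 16.1, and THE1B alone passed the rank limit, THE1C lying just inside it. None of the 4 was called on z-scores, where the family median was 0.249. In PBS the THE1 median rank lean was 17.3 points. Its median z-score lean there was -0.0883, close to the -0.0900 of the whole table, with 2 of 4 members above that. The related MST repeats were mixed, with 4 of 6 above the median on each scale and rank leans from -17.4 at MSTC to 9.38 at MSTA.

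A family of at least 3 subfamilies was said to lean where its median lay on the same side of the table's median on both scales and at least 3 in 4 of its members did so too. By this rule 7 of 20 families leaned to H3K9me3, 2 to H3K9me2 and 11 to neither, and 92 subfamilies belonged to no family of the list. On ranks a member at the very bottom of the H3K9me2 order cannot fall below the table's median of -1.88 points. This held for HERV-Fc1_LTR1, HERV-Fc1_LTR3, HERV-Fc2_LTR and HERV1_LTRb (H3K9me2 percentiles of 1.21 or less), LTR13_ (1.47) and LTR12E (1.74). Such members counted toward H3K9me3 on ranks whatever their H3K9me3 value. Of the 7 calls toward H3K9me3, 3 were lost under an alternative: LTR3 and LTR22, and LTR13 and LTR14, when ranks were taken within classes of CpG density, which left 5, and the HERV-Fc and HERV1 group with SD 1 per library, which left 6. Besides LTR10, THE1, LTR12 and the HERV-Fc and HERV1 group, the H3K9me3 side held 3 families linked to HERV-K, the betaretrovirus-like elements. These were MER11 (median 4.69 points over 4 subfamilies), LTR3 and LTR22 (3.22 over 8), and LTR13 and LTR14 (0 over 7). All 3 medians stood within 7 points of the table's median of -1.88, and only LTR14A among their members was called on both scales. That is 1 of 7 in LTR13 and LTR14 and 0 in the others, against 5.63% of the whole table. A count of 1 cannot be set apart from that share. LTR14A had z-scores of 0.481 for H3K9me3 and -0.0061 for H3K9me2 and leans of 0.487 and 35.1 points. In PBS the same rule gave 5 families toward H3K9me3, 3 toward H3K9me2 and 12 to neither. LTR10, the HERV-Fc and HERV1 group, MER11, and LTR13 and LTR14 leaned to H3K9me3 in both treatments. The MER11 median was larger in PBS, 24.0 points. THE1, LTR12, and LTR3 and LTR22 leaned to neither in PBS, and LTR5 leaned to H3K9me3 in PBS alone.

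**Figure D3:**
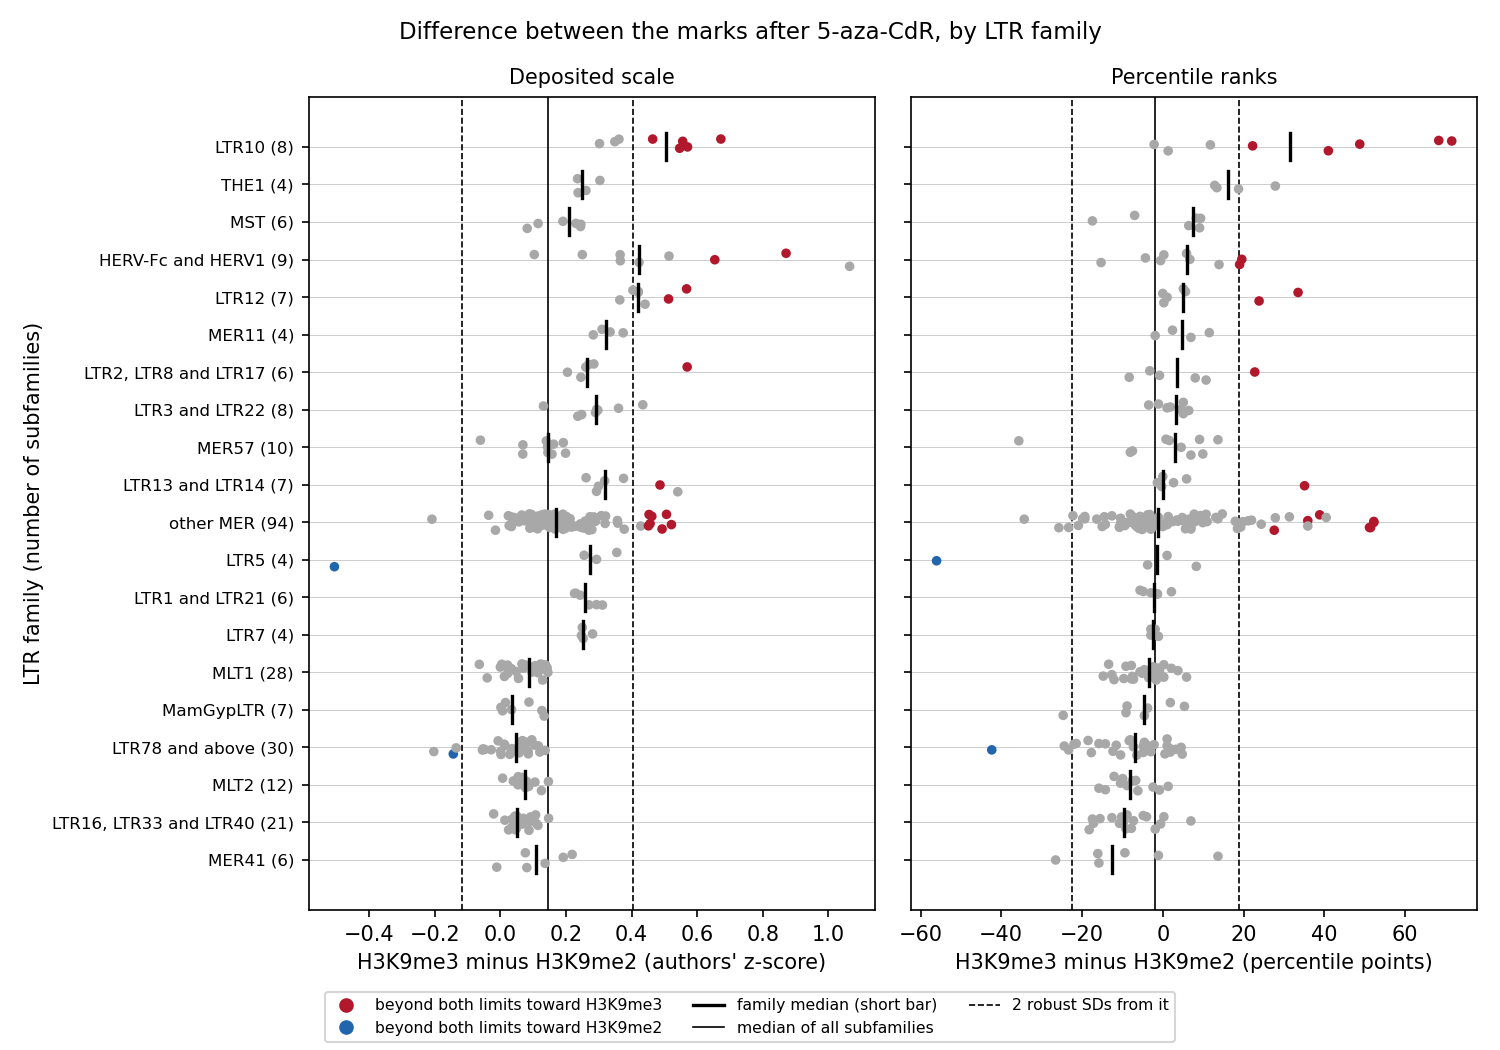
H3K9me3 minus H3K9me2 after 5-aza-CdR in each of 20 LTR families, as authors' z-scores (left) and percentile points (right), 1 point per subfamily, with short bars for family medians, a solid line for the median of all 373 subfamilies and dashed lines 2 robust SDs from it. LTR10 has the highest median on both scales, and LTR5 and LTR86A2 are the blue points on the H3K9me2 side.

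Among the 94 MER-named LTRs outside MER11, MER41 and MER57, 7 leaned to H3K9me3 on both scales (7.45%, near the 5.63% of the whole table), and the group's median rank lean was -1.21 points. MER83B had a lean of 52.3 points, with z-scores of 0.585 for H3K9me3 and 0.128 for H3K9me2. MER61E had the same rank lean with 0.586 for H3K9me3 and 0.134 for H3K9me2, and MER61F a lean of 35.9 points. MER61 is, with LTR10, among the LTRs known to carry p53 sites. MER72B and MER88 were near the top for H3K9me3 (percentiles 97.5 and 97.7) and near the middle for H3K9me2 (46.0 and 46.5), with leans of 51.5 and 51.2 points. MER9a1 and MER9a2, LTRs of a HERV-K group, had leans of 38.9 and 27.6 points.

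Of the subfamilies in no family, LTR26 came next after LTR10B and LTR10E in rank lean, with 56.3 points and z-scores of 0.666 for H3K9me3 and 0.198 for H3K9me2. LTR77 was at percentile 57.8 for H3K9me3 and 23.7 for H3K9me2, and LTR61 had a lean of 27.3 points. LTR2C, from a family whose median rank lean was 3.62, had z-scores of 0.359 for H3K9me3 and -0.210 for H3K9me2 and a lean of 22.8 points.

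LTR5 was the extreme on the H3K9me2 side, on both scales. Its z-scores after 5-aza-CdR were -0.154 for H3K9me3 and 0.351 for H3K9me2, at percentiles 0.938 and 57.0, a lean of -0.506 z-score units and -56.0 points. In PBS it was near the top for both marks, at percentiles 99.7 for H3K9me3 and 97.2 for H3K9me2. Its deposited H3K9me3 value in PBS is the round number -0.3, as are the H3K9me3 values of LTR11 (2 in 5-aza-CdR and -0.3 in PBS), and whether these were entered in another way than the rest was not tested. The other LTR5 members, LTRs of the HERV-K group that holds the youngest human proviruses, did not share this: LTR5_Hs had a lean of -3.75 points and LTR5B of 8.31. LTR11 itself, with 2 for H3K9me3 and 1.71 for H3K9me2, was the highest subfamily for both marks and had a rank lean of 0.

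LTR86A2, an ancient mammalian LTR, was the other subfamily called toward H3K9me2, with z-scores of 0.466 for H3K9me3 and 0.609 for H3K9me2 and leans of -0.143 and -42.4 points. LTR88c (-0.203), MER92C (-0.208) and LTR89 (-0.134) passed the z-score limit and not the rank limit, at percentiles of 98.8 or more for H3K9me2. On ranks alone the lowest were LTR35 (-41.0 points), MER57E3 (-35.7), LTR68 (-34.3), MER70C (-34.3), MER41E (-26.5) and LTR75B (-25.7). LTR35 and MER57E3 were in the lower part of the H3K9me3 order (percentiles 25.1 and 16.8) and above its middle for H3K9me2 (66.1 and 52.4). MER57E3 stood apart from its family, whose median rank lean was 3.08 points over 10 subfamilies.

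The families on the H3K9me2 side were both ERVL, an old lineage that spread before and during the mammalian radiation. The LTR16, LTR33 and LTR40 group had median leans of 0.0522 z-score units and -9.65 points, with 20 of 21 members below the table's median on z-scores and 17 of 21 on ranks. Its rank leans ran from -18.2 at LTR33A_ to 6.97 at LTR16D2. MLT2 had medians of 0.0767 and -8.18 points, with 11 of 12 and 10 of 12 below, from -15.8 at MLT2D to 1.34 at MLT2E. None of the members of these families passed a limit on either scale, so the shift was small and shared. MER41, LTRs with interferon-responsive copies, had the lowest median rank lean, -12.6 points over 6 subfamilies, with 4 of 6 below the median and MER41D at 13.7, and did not meet the rule.

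LTRs numbered 78 and above, MamGypLTR and MLT1 were ancient families that were below the table's median on z-scores almost without exception (30 of 30, 7 of 7 and 27 of 28) and less uniformly on ranks (22 of 30, 5 of 7 and 18 of 28). Their median rank leans were -6.84, -4.56 and -3.49 points, and they did not meet the rule. The group of LTR78 and above held 8 of the 20 subfamilies whose z-score was higher for H3K9me2 than for H3K9me3. LTR7 of HERV-H and the LTR1 and LTR21 group were above the median on z-scores in 4 of 4 and 6 of 6 members, with medians of 0.251 and 0.257. On ranks their medians were -2.41 and -2.14 points, close to the table's -1.88, so they leaned to neither mark.

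CpG density, which falls with age in methylated repeats, was related to the z-score lean and much less to the rank lean. The Spearman correlation with CpG density was 0.60 for the z-score lean and 0.22 for the rank lean. It was 0.24 for the z-score lean once each library was set to mean 0 and SD 1. The median z-score lean was 0.275 in the CpG-rich class, 0.140 in the middle class and 0.0843 in the CpG-poor class. The median rank leans were 0.268, -1.88 and -4.56 points in the same order. In the CpG-rich class the median z-scores were 0.301 for H3K9me3 and -0.0069 for H3K9me2, and in the CpG-poor class 0.557 and 0.478. When ranks were taken within each class, 19 of the 21 subfamilies leaning to H3K9me3 stayed above the rank limit, the exceptions being LTR10B1 and MER88. In the PBS libraries the correlation with CpG density was 0.73 for the z-score lean and 0.19 for the rank lean, so the pattern was not particular to 5-aza-CdR.

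**Figure D4:**
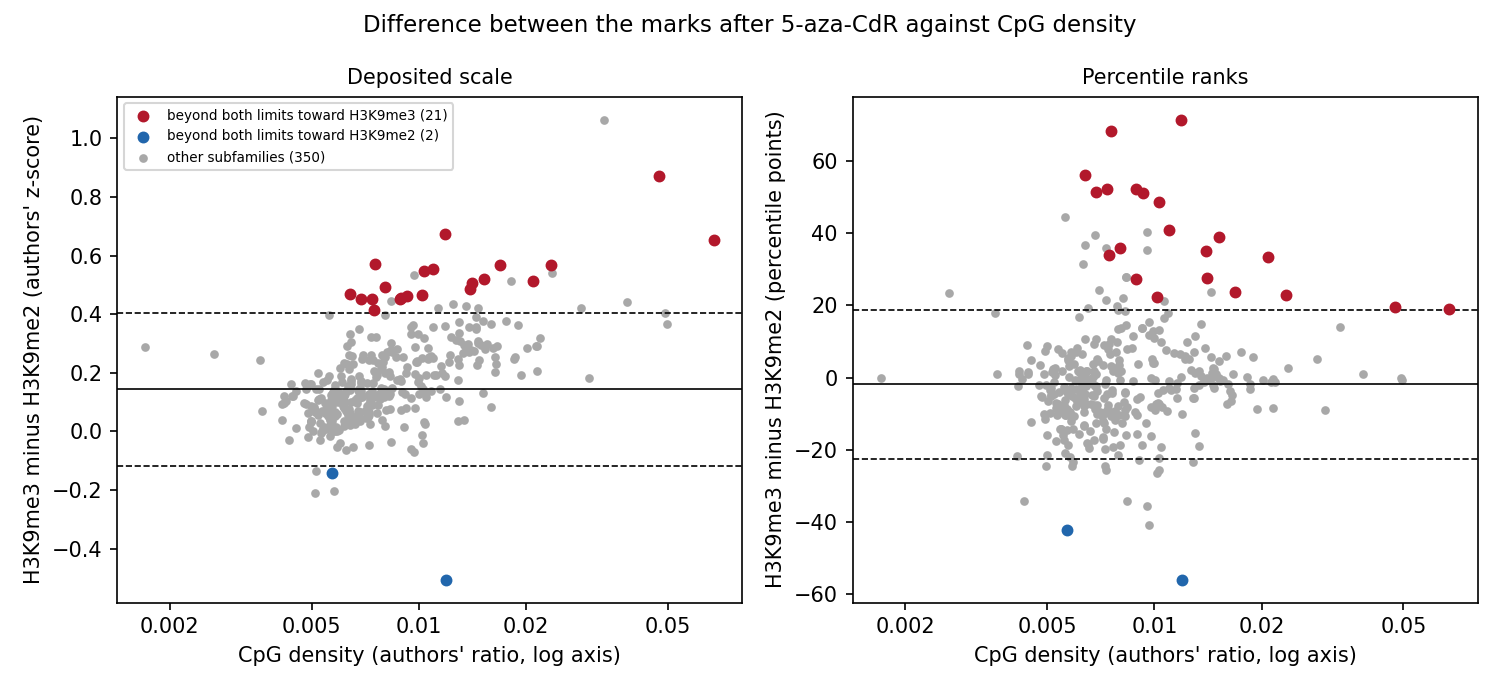
H3K9me3 minus H3K9me2 after 5-aza-CdR against the authors' CpG density (log axis), as z-scores (left) and percentile points (right), 1 point per subfamily, with the median of all subfamilies (solid) and limits of 2 robust SDs (dashed). The z-score lean is higher at CpG-rich LTRs (Spearman correlation 0.60, or 0.24 with SD 1 per library), and the rank lean is less so (0.22).

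On ranks, the 38 subfamilies above and 15 below the limit in 5-aza-CdR stood beside 22 above (5.90%) and 10 below (2.68%) in PBS, each against the limits of its own treatment. On z-scores, the 32 above and 5 below in 5-aza-CdR stood beside 13 above (3.49%) and 4 below (1.07%) in PBS. HERV1_LTRb alone was called on both scales in PBS (0.268%), and 0 were called toward H3K9me2. Of the subfamilies above the rank limit, 6 were shared, which is 15.8% of the 5-aza-CdR list and 27.3% of the PBS list: LTR10E, LTR14A, LTR61, MER61E, MER101 and LOR1b. Below it 2 were shared (13.3% and 20%), MER70C and MER9B. MER101, LOR1b and MER9B are named because the overlap is small and not by the naming rule. Across the 373 subfamilies the rank leans in 5-aza-CdR and PBS had a Spearman correlation of 0.30. For the z-score leans it was 0.74, and 0.36 with each library set to mean 0 and SD 1. Above the z-score limit 5 subfamilies were shared, 15.6% of the 5-aza-CdR list and 38.5% of the PBS list. HERV-Fc1_LTR2, HERV-Fc1_LTR3 and HERV1_LTRb were among them. In PBS the z-scores had an SD of 0.0354 for H3K9me3 and 0.187 for H3K9me2, so a large rank difference there can rest on a small z-score difference. The z-score lean in PBS had Spearman correlations of -0.99 with the H3K9me2 value and -0.69 with the H3K9me3 value. The PBS calls on z-scores thus largely followed low H3K9me2 values.

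Of the 21 subfamilies leaning to H3K9me3 after 5-aza-CdR, 17 had a larger rank lean in 5-aza-CdR than in PBS and 4 a smaller one. Their median rank lean was 35.9 points in 5-aza-CdR and 11.3 in PBS. As they were picked for a high lean in 5-aza-CdR, these counts are a description. The rank lean was larger in 5-aza-CdR than in PBS by most at MER83B (52.3 points in 5-aza-CdR and -20.1 in PBS), MER34D (31.4 and -32.2), LTR26 (56.3 and 0.268) and LTR10G. It was smaller by most at HERV1_LTRb (0.268 in 5-aza-CdR and 97.6 in PBS), LTR4 (15.3 and 82.3), LTR61 (27.3 and 86.3) and LTR5 (-56.0 and 2.55). The PBS lean of LTR5 rests on the round H3K9me3 value of -0.3 described above. HERV1_LTRb was among the lowest subfamilies for both marks in 5-aza-CdR and at percentile 99.3 for H3K9me3 in PBS.

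**Figure D5:**
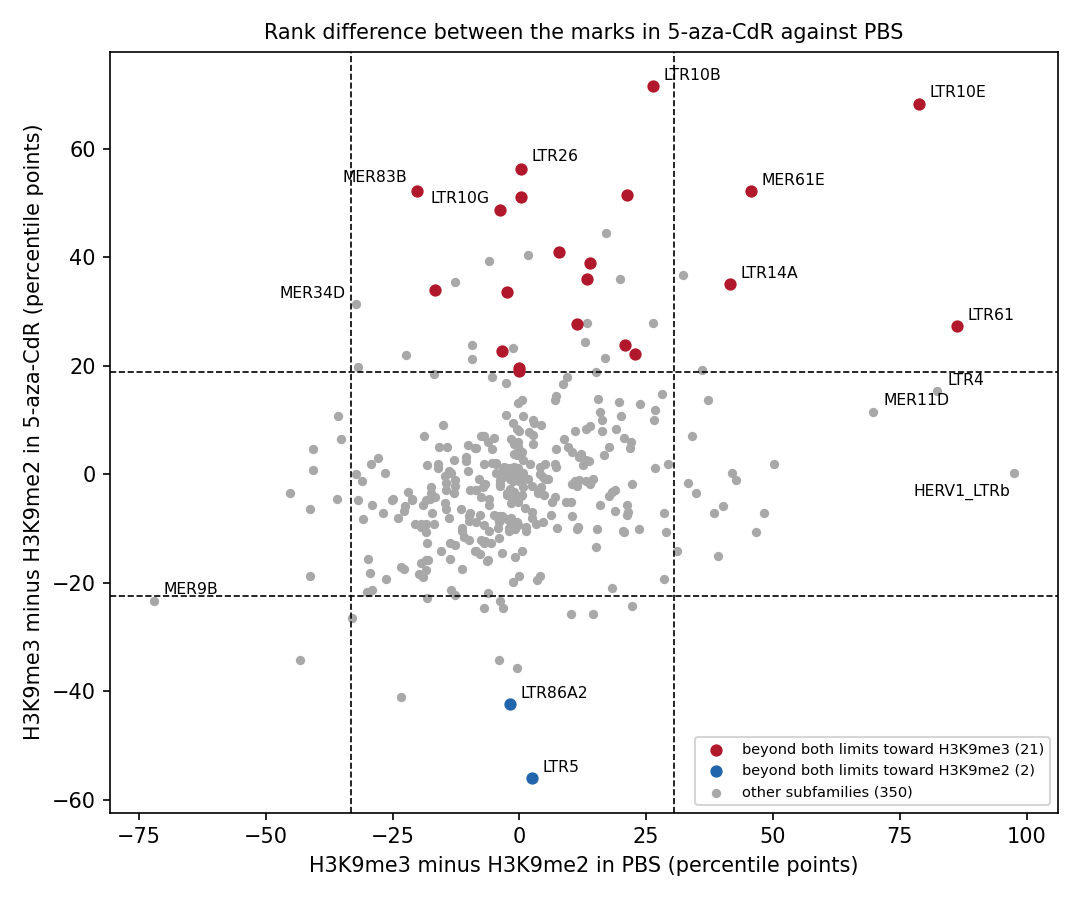
Percentile-rank difference H3K9me3 minus H3K9me2 in the 5-aza-CdR libraries (vertical) against the PBS libraries (horizontal), 1 point per LTR subfamily, with dashed lines at the limits of 2 robust SDs in each treatment. LTR10E, MER61E, LTR14A and LTR61 are the red points beyond the upper limit in both treatments, and HERV1_LTRb is beyond it in PBS alone.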

How the data were processed

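The deposited values are the authors' z-scores (a score per LTR subfamily and library, per the file headers) and the authors' CpG density, deposited as a ratio whose denominator is not stated. Per the submitters' processing notes, Bowtie2 and hg19 were used. For reads mapping to several copies, any input library and the population behind the z-score, the labels and headers give no method. Depth is unknown and no interval was computed. Leans, percentile ranks (mid-ranks), robust SDs and correlations were computed with pandas 2.3.3 and numpy 2.4.6. The calling was also run on simulated normally distributed values with large shifts planted in H3K9me3. The outcome is not reported here, and such a run does not measure the error of leans near the limit. Families were defined by name. Named subfamilies were the 8 highest and 8 lowest leans on each scale, all called on both scales, the 4 highest and 4 lowest z-scores per 5-aza-CdR library, the 4 largest changes of rank lean each way, and the highest, lowest and median-nearest member per family; exceptions are marked or complete a family. Members and lists were chosen with earlier results of these data known. Alternatives changed the limit, the scale, the ranks and the subfamilies kept. No sequences or positions of the LTRs were used here.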

Additional observations from a re-analysis of the deposited data

Results flagged for a closer look

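The median difference H3K9me3 minus H3K9me2 on the deposited scale had opposite signs in the treatments, 0.144 in 5-aza-CdR and -0.0900 in PBS. At 251 of 373 subfamilies the H3K9me3 z-score was the higher in 5-aza-CdR and the lower in PBS. With 1 library per mark and treatment this difference between treatments was not tested, and it depends on how the authors centred each library.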

How the results depend on the processing

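No paired analysis was possible because each group has 1 library and no result comes from a test. Counts are given as leaning to H3K9me3 and then to H3K9me2. With a limit of 3 robust SDs the counts were 10 and 1 on z-scores, 21 and 6 on ranks, and 4 and 1 on both. With 2 ordinary SDs they were 20 and 3, 21 and 6, and 10 and 1. With mean 0 and SD 1 per library the z-score counts were 42 and 11 and the counts on both scales 32 and 7, and as distances from the principal line 39 and 11. On that SD 1 scale all 21 subfamilies named above stayed above the limit. Leaving out LTR5 and LTR11 left 1 toward H3K9me2 on both scales, and leaving out the fifth of subfamilies nearest 0 left 9 on ranks and 1 on both. The count on both scales toward H3K9me2 thus rests on 2 subfamilies. The correlation between the marks was 0.849 as Pearson r, 0.850 without LTR5 and LTR11, 0.700 with CpG density held constant and 0.813 without the tenth of subfamilies richest in CpG. That of the z-score lean with CpG density was 0.237 with SD 1 per library, 0.617 without LTR5 and LTR11 and 0.521 without the CpG-richest subfamilies, and that of the rank lean 0.225 and 0.223 without the same subfamilies. With 3 robust SDs, 1 and 0 subfamilies were shared with PBS on ranks, and with SD 1 per library 6 and 0. Families leaning to H3K9me3 numbered 5 with ranks within CpG classes (LTR3 and LTR22, and LTR13 and LTR14, dropped out) and 6 with SD 1 per library (the HERV-Fc and HERV1 group dropped out), and 2 leaned to H3K9me2 under each. The cause of these shifts was not tested. Grouping by name stem, chosen after seeing the data, gave 14 of 48 stems toward H3K9me3 and 7 toward H3K9me2. In PBS the same grouping gave 11 and 8. The scale and the limit decide how many subfamilies are called, and without replicates or depth no lean has a measured error.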

Other observations

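Grouping by name stem, a choice made after seeing the values, and with subfamilies named for the same reason, added smaller sets to the H3K9me3 side after 5-aza-CdR. HERV-Fc, taken apart from HERV1, had a median z-score lean of 0.762 over 4 subfamilies, above the 0.506 of LTR10. Its median rank lean was 16.5 points. MER9 had a median rank lean of 21.2 points over 4 subfamilies, with MER9a3 at 14.7 and MER9B apart at -23.3. MER83 had a median of 21.2 points over 3 subfamilies. MER61 had 2.55 over 6, with only MER61E and MER61F called on both scales (33.3%, against 5.63% of the whole table).

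On the H3K9me2 side, LTR86 had the lowest median of the 48 stems, -23.3 points over 5 subfamilies. LTR86A2 (-42.4), LTR86B1 (-24.4) and LTR86B2 (-23.3) were below the rank limit of -22.5 points (3 of 5, against 4.02% of the whole table). LTR86B1 and LTR86B2 passed it narrowly, and only LTR86A2 was called on both scales. LTR86C was at -8.04 and LTR86A1 at 1.88. In the PBS libraries the LTR86 median was -1.88 points. LTR33 had a median of -15.5 points over 5 subfamilies in 5-aza-CdR and -13.7 in PBS.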
